A study of Mus musculus with 167 samples.

Results

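The 30 of 119 mice with the most T-cell RNA in their asbestos-induced tumours were compared with the 30 mice with the least. The T-cell level of a mouse was the mean, over Cd3d, Cd3e, Cd3g and Cd2, of log2 CPM (the counts of a gene per 1000000 counts of the mouse, with a prior count of 2), after the counts of all its tumours were summed. The highest 30 mice, called T-cell-rich, held 49 tumours and the lowest 30, called T-cell-poor, held 34. The 59 mice in neither group, with 84 tumours, are called the middle mice. Both groups were thus selected on the measured values of these 4 genes, so the levels of these and the other T-lineage genes in them are a description and carry no test. Tests of other genes that T cells express restate that choice, and nothing is supported with them.

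All 119 mice shared one design. Each was the offspring of a male of a Collaborative Cross strain, one of a panel of recombinant inbred mouse strains, and a female of the MexTAg line, in which the mesothelin promoter drives the SV40 large T antigen, an oncogene, in mesothelial cells. Every mouse, rich or poor, had received 2 intraperitoneal injections of 3 mg of Wittenoom crocidolite, a blue asbestos, given a month apart, and no treatment of the tumour is recorded in the labels. The labels give neither sex nor age at harvest. The crosses are called by the male's strain, of which there were 35, and the labels put 83 mice above and 36 below median survival. Whole tumours were sequenced, so every value is an average over tumour cells, stroma and immune cells.

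The chains encoded by Cd3d, Cd3e and Cd3g carry the signal of the T-cell receptor into the cell, and Cd2 is an adhesion receptor of T and natural killer (NK) cells. T cells in a tumour recognise peptides on MHC molecules of other cells, and those that release interferon gamma switch on antigen presentation and chemokines such as Cxcl9 in the cells around them. B cells, plasma cells and dendritic cells can gather with T cells in ordered lymphoid aggregates.

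Some libraries went against their labels or held tissue other than tumour. Over 300 genes that vary most between strains, 5 of 162 libraries tested lay nearer to the mean of another strain than to their own by more than 0.1 in correlation. One came from T-cell-rich mouse MEE-A3 (r = 0.97 to CC044 and -0.37 to its own strain), whose T-cell level was 5.80 in that library and 1.56 in its other tumour. One came from T-cell-poor mouse LOX-D1 (r = 0.89 to LAT), and the other three from middle mice. Without these mice, 2725 genes were higher and 3472 lower in rich mice, against 2813 and 3659 with them. In all, 7 libraries lay nearer to another strain. Those within the limit of 0.1, which were kept, came from rich mice YID-E1 (r = 0.47 to CC053 and 0.39 to its own strain) and LOX-E4 (0.35 to CC044 and 0.30). Total counts per mouse averaged 37259466 in rich and 23249474 in poor mice (permutation test, adjusted p = 0.00323), with 1.63 and 1.13 tumours per mouse, and counts per tumour averaged 22456432 and 20436246 (permutation test, adjusted p = 0.0421). Rich mice also had more genes with a count (means of 22420.1 and 20856, adjusted p = 0.00038) and larger TMM scaling factors (1.05 and 0.948, adjusted p = 0.00038), both by permutation. A total of 2 rich against 11 poor mice held one of the 17 libraries with the highest numbers in their titles (Fisher's exact test, adjusted p = 0.0389). With 1 tumour per mouse 2728 genes were higher and 3628 lower; beyond this and leaving out those 17 libraries, the part of depth and library number in the results was not tested.

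The level itself ran without a gap through both limits. It was 2.12 in the last mouse inside the rich group (LAX-G3) and 2.08 in the first outside it (CIS-G3), and 0.40 in the first mouse outside the poor group (GIT-K2) and 0.39 in the last inside it (CC001-H3). Rich mice spanned 2.12 to 7.11 (mean 4.28 ± 1.66, SD, n = 30) and poor mice -2.53 to 0.39 (mean -0.20 ± 0.67, SD, n = 30). The rich group was therefore the more spread, and middle mice, with a median of 1.09, sat much closer to the poor mice. When 8 other T-cell genes set the level, 27 of the 30 rich and 22 of the 30 poor mice were the same.

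**Figure D1:**
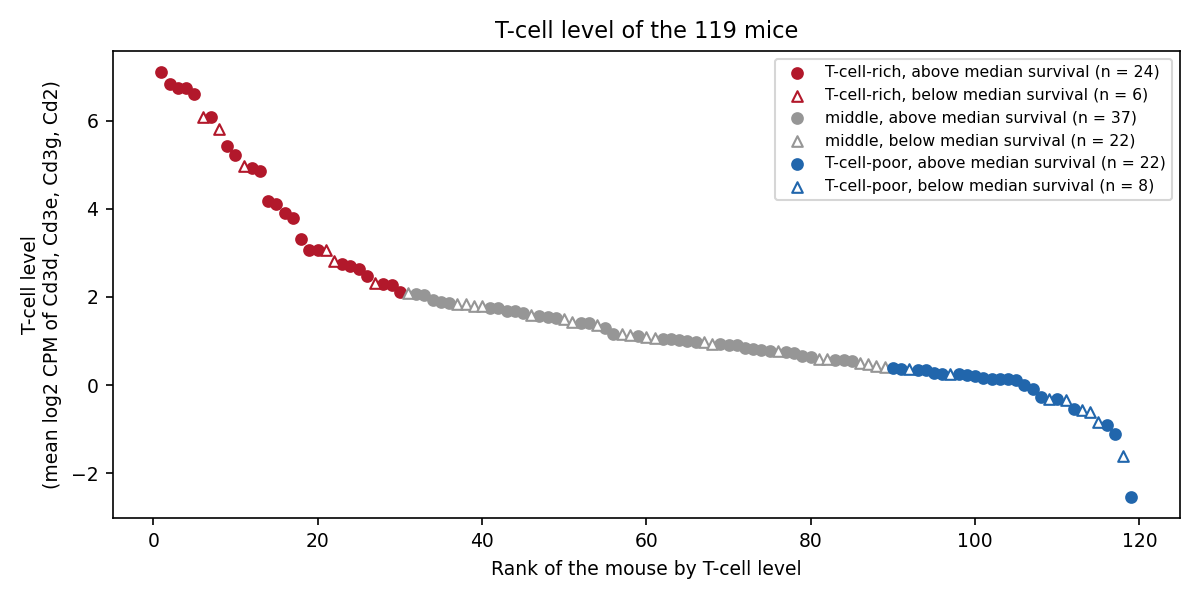
T-cell level (mean log2 CPM of Cd3d, Cd3e, Cd3g and Cd2, vertical axis) of each of the 119 mice by rank (horizontal axis), filled circles above and open triangles below median survival. The level falls steeply within the 30 T-cell-rich mice, from 7.11 to 2.12, and has no gap at either limit.

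The genes of the rule and their neighbours in the T-cell programme show what the groups hold. Cd3e ran from 6.47 to 307 CPM (median 27.6) in rich mice and from 0.0720 to 2.56 CPM (median 1.11) in poor mice. Both arms of the T-cell response were present in rich mice: Cd4, the co-receptor of helper cells, ran from 3.20 to 150.6 CPM (median 24.4) against from 0.515 to 11.4 CPM (median 1.93) in poor mice, and Cd8a, the co-receptor of cytotoxic cells, ran from 3.47 to 168 CPM (median 19.4) against from 0.288 to 2.91 CPM (median 1.19). The levels of Cd8a did not overlap between the groups, and those of Cd4 did. Over 39 T-lineage genes measured the median log2 difference was 4.20. Exceptions were Thy1, a marker that fibroblasts also carry (median 81.03 CPM in rich and 124 in poor mice, log2 difference -0.65), and Trdc, the constant chain of gamma-delta T cells (log2 difference 0.01). Poor mice were not empty of these transcripts, and the median poor mouse held 1.22 CPM of the T-cell receptor chain Trac. In RNA of whole tumours, fewer cells of a type and less RNA per cell cannot be told apart.

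Outside the T-cell genes the groups differed widely. Of 16096 genes tested with edgeR's quasi-likelihood test, 2813 were higher in rich mice (17.5%) and 3659 lower (22.7%) at a Benjamini-Hochberg adjusted p of 0.05, and the median log2 difference over all genes was -0.07. Of the higher genes, 38 were T-lineage or T-cell receptor genes and 86 were immunoglobulin or receptor gene segments. The groups did not overlap at all for 23 genes, all higher in rich mice; besides T-lineage genes these included Cxcr3, Fasl, Gimap3, Gimap7, Gpr174, Ltb, Ms4a4b, Rhoh, Stat4, Tbx21 and Tlr11. No gene was so separated in the other direction. With strain as a covariate 1586 genes were higher (9.85%) and 1625 lower (10.1%). In that fit the group difference is estimated only from the 7 strains with mice of both groups, 16 rich and 10 poor mice. Fewer calls there can therefore go with differences of the same size.

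The 12 genes of lowest p that were higher in rich mice are mostly genes of lymphocytes, the cells on which the groups were chosen. Ms4a4b, a membrane protein of T cells, ran from 9.60 to 197 CPM (median 29.01) in rich and from 1.05 to 4.60 CPM (median 2.27) in poor mice, a log2 difference of 4.30 ± 0.30 (SE), with no overlap. Gimap3, a GTPase that bears on lymphocyte survival, ran from 6.80 to 325 CPM (median 43.7) against from 0.629 to 6.61 CPM (median 1.90) (log2 difference 5.08 ± 0.39). Itgal, the alpha chain of the integrin LFA-1 with which leukocytes bind other cells, ran from 19.6 to 444 CPM (median 60.3) against from 1.46 to 20.1 CPM (median 4.40), and 29 of 30 rich mice lay above the highest poor mouse. Btla, an inhibitory receptor of B and T cells, ran from 3.04 to 378 CPM (median 39.1) against from 0.339 to 4.53 CPM (median 1.08) (log2 difference 5.68 ± 0.47). The others were Ptprcap, which associates with the phosphatase CD45 (6.32), Gimap7 (6.56), Gpr174 (5.09), Cxcr3, the receptor of Cxcl9 (4.42), Tbc1d10c (4.20), the ribonuclease Rnase6 (4.12), Il2rb, a chain of the interleukin 2 receptor (3.84), and Rasal3 (3.62), with log2 differences in parentheses.

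The 12 genes of lowest p that were lower in rich mice had smaller differences, with overlapping groups throughout. Gadd45a, a stress gene induced by DNA damage, ran from 5.52 to 52.6 CPM (median 13.3) in rich and from 6.88 to 389 CPM (median 49.95) in poor mice (log2 difference -2.32 ± 0.32, adjusted p = 4.00e-08), and 29 of 30 rich mice lay below the poor median. Ctsl, a lysosomal protease, ran from 93.5 to 1802 CPM (median 338) against from 319.9 to 4139 CPM (median 1053) (log2 difference -1.70 ± 0.25). Gabarapl1, a protein of autophagosomes, ran from 22.7 to 131 CPM (median 66.6) against from 47.7 to 276 CPM (median 134), and all 30 rich mice lay below the poor median. Calcoco1, an autophagy receptor, had the lowest p of this group, with from 34.5 to 106.2 CPM (median 60.4) against from 19.99 to 266 CPM (median 105.7) (log2 difference -1.14 ± 0.15, adjusted p = 1.45e-08). The remainder were Grasp (-2.22), the unconventional myosin Myo10 (-1.45), Spats2 (-1.36), the small GTPase Rab31 (-1.31), Gtf2ird1 (-1.23), Tanc1 (-1.12), the casein kinase Csnk1e (-1.09) and Prpf40b (-1.03). All 24 genes named in these paragraphs kept their direction and their call in each of 18 alternative analyses. They were chosen for low p in the same mice, which most alternatives share, so no support is drawn from this.

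**Figure D2:**
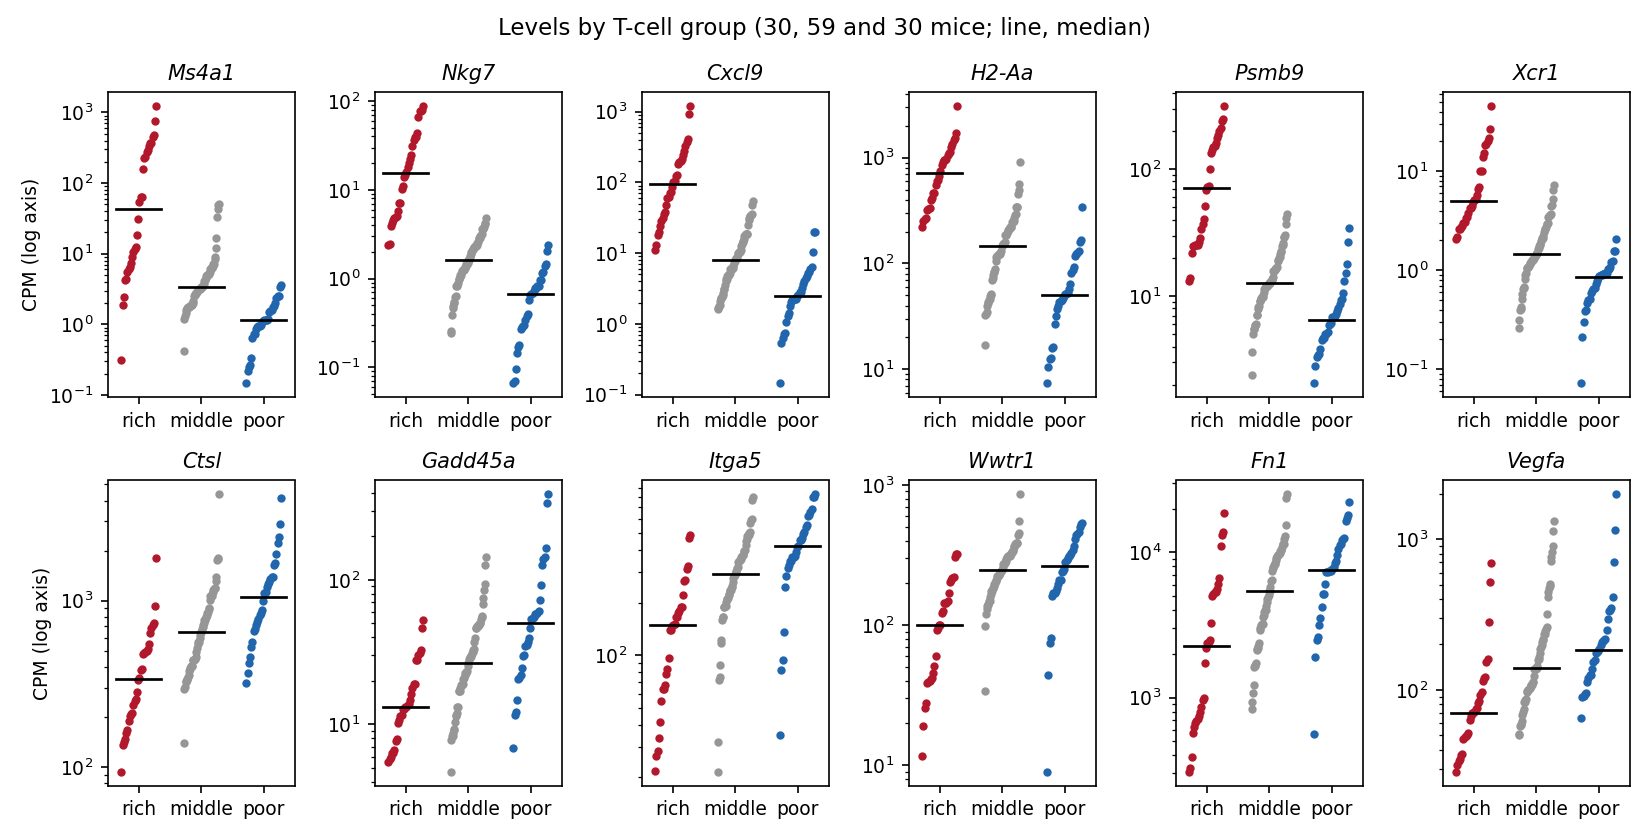
CPM (log axis) of 12 genes in each T-cell-rich (red, n = 30), middle (grey, n = 59) and T-cell-poor mouse (blue, n = 30), mice ordered by value within a group, line at the median. Median Ms4a1 is 42.4 CPM in rich and 1.13 in poor mice, and median Itga5 is 148.3 and 419; the lower row overlaps between groups throughout.

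B-cell genes were higher together with T-cell genes. All 17 tested genes of the B-cell list were higher in rich mice, with a median log2 difference of 5.91 against -0.07 over all genes. Ms4a1, which encodes the B-cell surface protein CD20, ran from 0.314 to 1239 CPM (median 42.4) in rich and from 0.146 to 3.63 CPM (median 1.13) in poor mice (log2 difference 6.94 ± 0.64, edgeR adjusted p = 2.19e-13). A total of 27 of 30 rich mice lay above the highest poor mouse, while 1 rich mouse lay below the poor median. Cd79b and Cd79a, the signalling chains of the B-cell receptor, differed by 5.92 ± 0.50 and 6.26 ± 0.55 in log2, and Pax5, the B-lineage transcription factor, by 6.89 ± 0.64. The summed B-cell list ran from 79.3 to 5461 CPM (median 2673) in rich mice and from 13.3 to 1087 CPM (median 85.9) in poor mice.

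Genes of plasma cells, the antibody-secreting descendants of B cells, were mostly higher too. Of 15 tested genes 12 were higher and 1 lower (median 4.42). Jchain, which joins antibody units into polymers, ran from 2.57 to 1962 CPM (median 148.3) in rich and from 0.306 to 81.5 CPM (median 5.99) in poor mice (log2 difference 4.63 ± 0.58), and 3 rich mice lay below the poor median. Irf4, a transcription factor of plasma and activated T cells, differed by 4.77 ± 0.45, and the antibody light chain Igkc by 4.42 ± 0.55. The lower member was Sdc1 (-0.98 ± 0.25), a proteoglycan that plasma cells share with epithelial and mesothelial cells.

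Genes of lymphoid stroma and vessels were less uniform, with 9 of 15 tested higher and 2 lower, and 5 and 1 with strain as a covariate. Ltb and Lta, lymphocyte cytokines that organise lymphoid tissue, differed by 5.13 ± 0.43 and 5.10 ± 0.61, and Ccl19, a chemokine that draws T cells and dendritic cells, by 5.76 ± 0.68. The receptor of Ltb on stromal cells, Ltbr, was lower in rich mice (-0.77 ± 0.17), as was Pdpn (-0.75 ± 0.28), a marker of reticular stroma and of mesothelium. The B-cell attractant Cxcl13 had medians of 116 and 15.97 CPM and did not pass (log2 difference 1.05 ± 0.55, edgeR adjusted p = 0.120).

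Part of this signal sat in a few mice. The sum of 6 genes of lymph node vessels and follicles (Ccl21a, Madcam1, Glycam1, Chst4, Cr2 and Fcer2a) had a median of 22.5 CPM over the 119 mice, and 5 mice exceeded 10 times that, all of them T-cell-rich: CC053-G3, YID-E1, CC044-K1, CC053-A1 and MEE-A3. Whether these libraries held a piece of a lymph node was not tested. The B-cell list kept at least 15 of its genes higher in each of 18 alternatives, the one without these 5 mice among them.

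Cytotoxic and NK genes were higher without exception among the 19 tested (median log2 difference 3.44). Nkg7, a granule protein of killer cells, ran from 2.37 to 88.3 CPM (median 15.5) in rich and from 0.0663 to 2.42 CPM (median 0.665) in poor mice (log2 difference 4.96 ± 0.41). Gzmb, a granule protease, ran from 0.805 to 137 CPM (median 11.4) against from 0 to 4.73 CPM (median 0.680) (4.56 ± 0.49), with 19 of 30 rich mice above the highest poor mouse. Fasl, which triggers death of cells that bear Fas, differed by 4.30 ± 0.34, and Prf1, the pore-forming perforin, by 3.46 ± 0.46. Many of these genes are expressed by the T cells on which the groups were chosen.

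Genes of several T-cell subsets were also higher, a direction that follows from the choice of the groups. Of 15 tested 12 were higher and none lower (median 2.37). Foxp3, the factor of regulatory T cells, ran from 0.716 to 92.02 CPM (median 5.36) in rich and from 0.212 to 1.10 CPM (median 0.552) in poor mice (4.49 ± 0.42). Tbx21, the factor of type 1 helper cells, differed by 6.31 ± 0.57, Cxcr5, the receptor that leads follicular helper and B cells to Cxcl13, by 6.26 ± 0.65, and Il2ra, a chain of the interleukin 2 receptor, by 2.96 ± 0.26.

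Checkpoint receptors of lymphocytes were higher in rich mice. The receptors differed in log2 as follows: Pdcd1 (PD-1) by 4.91 ± 0.45, Tigit by 3.23 ± 0.37 and Lag3 by 3.51 ± 0.43. Cd86, a ligand on antigen-presenting cells, rose as well (2.41 ± 0.27). Cd274, which encodes PD-L1, ran from 7.37 to 283 CPM (median 33.5) in rich and from 3.51 to 335 CPM (median 7.22) in poor mice; every rich mouse lay above the poor median, one poor mouse (VIT-A2) was the highest of all, and the log2 difference was 1.13 ± 0.45 (edgeR adjusted p = 0.0388). Of the 18 tested, 10 were higher and 4 lower (55.6% and 22.2%). The lower share is near that over all genes, 22.7%, and 2 were lower with strain as a covariate. The 4 are ligands: Pvr, which Tigit binds (-0.94 ± 0.18), Cd276, also called B7-H3 (-1.02 ± 0.32), Vtcn1, also called B7-H4 (-1.94 ± 0.57), and Nectin2 (-0.56 ± 0.21).

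Genes of dendritic cells, which prime T cells, were mostly higher, with 11 of 15 tested genes higher and 2 lower (median 2.15). Xcr1, a chemokine receptor of the dendritic cells that present to CD8 T cells, ran from 2.05 to 45.6 CPM (median 5.02) in rich and from 0.0720 to 2.06 CPM (median 0.850) in poor mice (3.29 ± 0.30), with 29 of 30 rich mice above the highest poor mouse. Siglech, of plasmacytoid dendritic cells, differed by 2.33 ± 0.29, and Flt3, the receptor for a growth factor of dendritic cells, by 2.77 ± 0.36. The lower members, Fscn1 (-0.87 ± 0.27) and Tcf4 (-0.53 ± 0.19), are also expressed by mesenchymal cells.

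Macrophage and monocyte genes were mixed, and their counts changed with the analysis. Of 22 tested 5 were higher and 4 lower (22.7% and 18.2%, against 17.5% and 22.7% over all genes). They were 8 and 1 with strain as a covariate, 9 and 3 with limma-voom and 2 and 4 without libraries of other tissue, so no direction is read from this list. Ly6c2 and Ccr2, of blood monocytes, were higher by 3.47 ± 0.44 and 1.23 ± 0.32, and the complement gene C1qb by 0.58 ± 0.23. Spp1, osteopontin, which tumour cells and macrophages both secrete, was lower, with medians of 215 CPM in rich and 885 in poor mice (-2.10 ± 0.46). Marco passed as lower (-2.59 ± 0.95) although its median was higher in rich mice (5.74 against 1.57 CPM), and poor mouse VIT-A2 alone held 79.6% of its summed CPM; within strain the difference was 2.67 ± 1.36 and did not pass (edgeR adjusted p = 0.179), and DESeq2 and limma-voom put it higher. Among neutrophil genes 2 of 13 were higher and 2 lower (15.4% each, below both shares over all genes). The lower ones, the chemokines Cxcl1 (-2.63 ± 0.60) and Cxcl2 (-2.90 ± 0.69), are made by many cells and were highest in poor mouse LOX-A3. Of 17 lymphocyte chemokines and receptors 10 were higher and none lower, led by Cxcr3 and by Ccl8 (3.19 ± 0.37).

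MHC class II molecules present peptides to CD4 T cells. All 10 genes tested were higher in rich mice, also in each of 18 alternatives, with a median log2 difference of 3.28. H2-Aa, the alpha chain of the class II molecule H2-A, ran from 221 to 3095 CPM (median 712) in rich and from 7.35 to 346 CPM (median 50.3) in poor mice (3.35 ± 0.32, edgeR adjusted p = 7.41e-13), and every rich mouse lay above the poor median. Ciita, the transactivator that class II genes depend on, ran from 15.9 to 561 CPM (median 51.9) against from 0.535 to 21.6 CPM (median 3.50) (4.71 ± 0.43). H2-Eb1 differed by 3.18 ± 0.37, and H2-Oa, a chain of a regulator of peptide loading found mainly in B cells, by 5.69 ± 0.51. These genes are expressed by B cells and dendritic cells, whose lists rose as well, and by other cells under interferon gamma, and their shares were not tested. The class II genes are controlled by a short promoter module whose Y box binds the factor NF-Y. The Y box letters CTGATTGG, sought on both strands, were in the 250 bases before the start of 3 of the 7 class II genes with a RefSeq promoter (GRCm38.p6) and of 3.83% of 32851 promoters. They were also in 3 of 10 class I presentation genes and 2 of 13 interferon gamma genes with such a promoter, so they are not particular to class II. The stretches of the 3 class II genes are shown with the Y box in capitals because they are the class II members in which these letters can be read directly. Each stretch ends 1 base before the start.
H2-Aa, chr17:34287824-34287923, minus strand: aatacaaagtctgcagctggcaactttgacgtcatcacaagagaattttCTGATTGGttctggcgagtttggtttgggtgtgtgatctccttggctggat
H2-Eb1, chr17:34305767-34305866, plus strand: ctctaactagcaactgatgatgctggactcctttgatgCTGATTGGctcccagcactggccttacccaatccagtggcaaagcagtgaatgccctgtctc
H2-Oa, chr17:34092279-34092378, plus strand: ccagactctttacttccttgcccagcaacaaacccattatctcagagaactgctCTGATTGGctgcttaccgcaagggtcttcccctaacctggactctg
The box begins 51, 62 and 46 bases before the start of H2-Aa, H2-Eb1 and H2-Oa, respectively. In rich mice their medians were 712, 578 and 6.96 CPM, and in poor mice 50.3, 36.8 and 0.339 CPM.

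MHC class I presentation rose to a smaller extent. Of 12 tested genes 11 were higher (median 1.65). Psmb9, a subunit of the immunoproteasome, which cuts peptides for class I, ran from 13.1 to 316 CPM (median 70.5) in rich and from 2.05 to 34.3 CPM (median 6.46) in poor mice (3.35 ± 0.34). Nlrc5, the class I transactivator, differed by 2.73 ± 0.30, Tap1, a peptide transporter, by 2.67 ± 0.31, and B2m, the light chain of class I molecules, by 1.03 ± 0.23.

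Interferon gamma response genes were higher in 20 of 22 cases, with none lower and a median log2 difference of 1.91. Cxcl9, the chemokine ligand of Cxcr3, ran from 11.2 to 1210.3 CPM (median 93.6) in rich and from 0.144 to 20.2 CPM (median 2.51) in poor mice (5.17 ± 0.50, edgeR adjusted p = 9.84e-13), and 26 rich mice lay above the highest poor mouse. The receptor chain Ifngr1 (0.26 ± 0.12, adjusted p = 0.0744) and Cxcl11 (1.06 ± 0.50, adjusted p = 0.0824) did not pass with edgeR. The interferon gamma-activated element, GAS, was sought as TTCNNNGAA, and the interferon-stimulated response element, ISRE, was sought as GAAA and GAAA separated by any 2 bases, both on both strands. In the 250 bases before the start, 6 of 13 list members with a RefSeq promoter held GAS and 10 held ISRE, against 7.02% and 2.98% of 32851 promoters. Among type I interferon genes with a RefSeq promoter, 7 of 15 held ISRE too. Of the members that held both, the stretches of 4 are shown as examples, GAS and ISRE in capitals, and Irgm2 is not shown. Each stretch ends 1 base before the start, and the marked matches do not overlap.
Gbp5, chr3:142496754-142496933, plus strand: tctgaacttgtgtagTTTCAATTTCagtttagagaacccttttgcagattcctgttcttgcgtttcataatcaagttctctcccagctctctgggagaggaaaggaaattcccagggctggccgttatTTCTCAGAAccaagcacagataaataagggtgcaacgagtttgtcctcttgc
Gbp7, chr3:142530216-142530335, plus strand: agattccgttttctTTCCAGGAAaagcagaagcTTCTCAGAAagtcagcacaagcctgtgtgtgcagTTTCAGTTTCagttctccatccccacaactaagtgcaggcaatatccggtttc
Tgtp1, chr11:48992247-48992366, minus strand: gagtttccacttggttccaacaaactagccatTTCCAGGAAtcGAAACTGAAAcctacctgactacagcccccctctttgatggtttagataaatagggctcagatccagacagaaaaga
Igtp, chr11:58199436-58199555, plus strand: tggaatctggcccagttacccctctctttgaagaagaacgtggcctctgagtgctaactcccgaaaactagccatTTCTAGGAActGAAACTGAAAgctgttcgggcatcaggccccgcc
GAS begins 52 bases before the start of Gbp5, 87 before that of Gbp7 (the nearer of its matches), 88 before that of Tgtp1 and 45 before that of Igtp, and ISRE begins 165, 53, 77 and 34 bases before them, on the reverse strand in Gbp5 and Gbp7. All 4 encode interferon-induced GTPases. Gbp7 ran from 37.8 to 435 CPM (median 89.9) in rich and from 13.99 to 94.8 CPM (median 20.7) in poor mice (1.90 ± 0.23). Gbp5 ran from 13.1 to 353 CPM (median 46.8) against from 2.38 to 51.8 CPM (median 6.30) (2.70 ± 0.33). Tgtp1 ran from 7.06 to 490.1 CPM (median 48.3) against from 0 to 70.6 CPM (median 2.19) (3.82 ± 0.49), and Igtp ran from 23.2 to 406 CPM (median 70.5) against from 3.07 to 102.9 CPM (median 9.38) (2.55 ± 0.34). For each of the 4 every rich mouse lay above the poor median, and the groups overlapped. Type I interferon genes were higher in 13 of 20 cases with none lower (median 1.06), among them the antiviral genes Oas3 (2.32 ± 0.37) and Mx1 (2.30 ± 0.37). Families of near-identical genes, such as the Gbp, Gimap and H2 genes, can share reads, so the split between their members is uncertain.

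**Figure D3:**
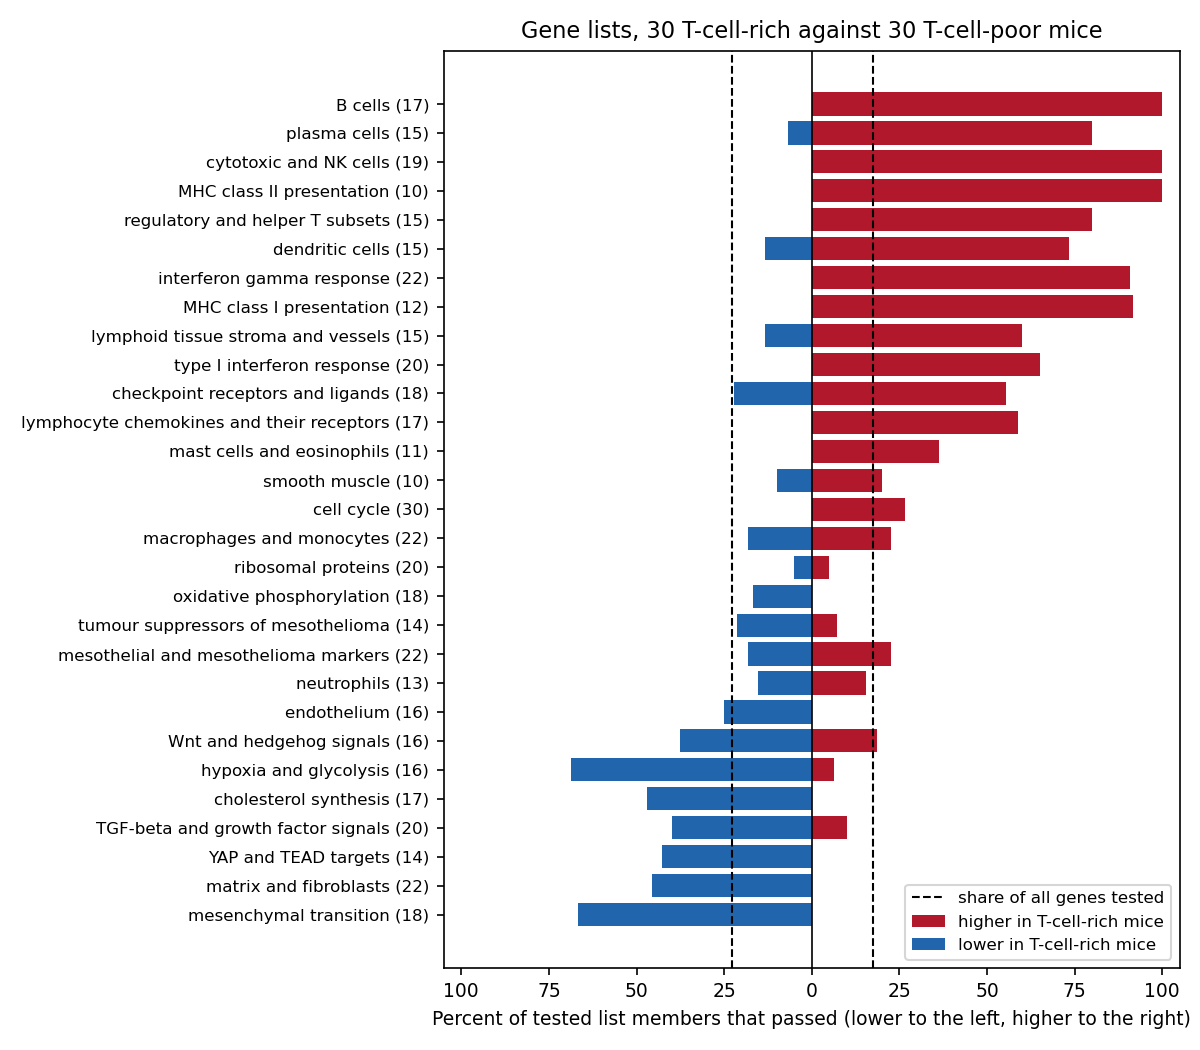
Percent of the tested members of each gene list (number tested in parentheses) that passed as higher (red, right) or lower (blue, left) in 30 T-cell-rich against 30 T-cell-poor mice, lists ordered by median log2 difference. Dashed lines mark the shares over all genes, 17.5% and 22.7%. Most immune lists lie at the top, with the macrophage and neutrophil lists further down, and mesenchymal and matrix lists lie at the bottom.

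Several lists held a larger share of lower genes than the 22.7% over all genes. Among them were hypoxia and glycolysis (68.8%), mesenchymal transition (66.7%) and matrix and fibroblasts (45.5%). Of 18 genes of mesenchymal transition, 12 were lower in rich mice and none higher, with a median log2 difference of -0.91. Itga5, the fibronectin receptor chain, ran from 21.7 to 487 CPM (median 148.3) in rich and from 34.8 to 832 CPM (median 419) in poor mice (-1.58 ± 0.26, edgeR adjusted p = 2.02e-06), and 28 of 30 rich mice lay below the poor median. Fn1, fibronectin itself, ran from 308 to 18742 CPM (median 2278) against from 558 to 22178 CPM (median 7602) (-1.25 ± 0.35). Vim, the intermediate filament of mesenchymal cells, differed by -0.91 ± 0.22, and the transcription factors Zeb1 and Twist1 by -0.88 ± 0.22 and -1.36 ± 0.34. Between 8 and 17 list genes were lower in the 18 alternatives.

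Matrix and fibroblast genes had 10 of 22 lower and none higher (median -0.81). Col1a1, a chain of the main fibrous collagen, ran from 111.7 to 14205 CPM (median 1923) in rich and from 322 to 30265 CPM (median 4774) in poor mice (-1.10 ± 0.41), Col6a3 differed by -1.28 ± 0.37 and the growth factor receptor Pdgfra by -1.12 ± 0.33. With strain as a covariate 1 gene of this list was lower, while the median log2 difference was -0.96. Targets of YAP and TEAD, the end of the Hippo pathway that mesotheliomas often inactivate, had 6 of 14 lower and none higher (median -0.65). The lower share was 42.9%, against 22.7% over all genes, and 3 were lower with strain as a covariate. Wwtr1, the YAP partner also called TAZ, ran from 11.6 to 324 CPM (median 100.4) against from 8.98 to 537 CPM (median 266) (-1.33 ± 0.27), and the secreted target Ccn1 differed by -1.24 ± 0.29. In the same mice the summed class II list ran from 1326 to 21917 CPM (median 4601) in rich and from 66.7 to 2821 CPM (median 342) in poor mice; the part of this shift in RNA make-up in the lower values was not tested.

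Part of the growth factor and hypoxia genes were lower too. Vegfa, the growth factor of blood vessels, ran from 28.6 to 692 CPM (median 70.7) in rich and from 64.9 to 1982 CPM (median 183) in poor mice (-1.54 ± 0.32), and 27 of 30 rich mice lay below the poor median. Inhba, a subunit of activin, differed by -1.69 ± 0.37. In the list of growth factor signals 8 of 20 were lower and 2 higher (40% and 10%, against 22.7% and 17.5% over all genes). Of 16 hypoxia and glycolysis genes 11 were lower and 1 higher (median -0.62), among them the glucose transporter Slc2a1 (-1.41 ± 0.30) and Ndrg1 (-1.63 ± 0.34), with Pfkp as the higher one (0.58 ± 0.24). Immediate early genes, which rise within minutes of a stimulus or of tissue handling, had 6 of 13 lower (46.2%), such as Jun (-1.65 ± 0.43) and Dusp1 (-1.17 ± 0.26), and Egr2 higher (1.19 ± 0.30). With strain as a covariate 4 growth factor, 5 hypoxia and 3 immediate early genes were lower.

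Mesothelial markers did not separate the groups. Of 22 tested 5 were higher and 4 lower (22.7% and 18.2%, against 17.5% and 22.7% over all genes). With strain as a covariate they were 1 and 0. Msln, mesothelin, ran from 1.11 to 223 CPM (median 16.6) in rich and from 0.596 to 419 CPM (median 23.3) in poor mice (-0.48 ± 0.53, edgeR adjusted p = 0.497), and Wt1, a mesothelial transcription factor, ran from 1.36 to 168 CPM (median 14.1) against from 0.0973 to 454 CPM (median 7.10) (-0.55 ± 0.60, adjusted p = 0.487). Some mice of either group were thus nearly without these defining markers. Krt18, a keratin of epithelial-type cells, was lower (-2.43 ± 0.49), and Tgm1, a transglutaminase of epithelia, higher (1.78 ± 0.31). Proliferation genes had 8 of 30 higher and none lower (26.7% higher, against 17.5% over all genes, median 0.38), and 1 higher with strain as a covariate. Mki67, present in all dividing cells, ran from 105.6 to 1737 CPM (median 506) in rich and from 5.14 to 632 CPM (median 221) in poor mice (1.09 ± 0.30), and the replication gene Mcm5 differed by 1.08 ± 0.29. Between 1 and 12 cell cycle genes were higher in the alternatives, so no result is read from the list, and dividing lymphocytes and dividing tumour cells are not separated in these data.

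The direction of the liver genes changed with a few libraries. Of 17 hepatocyte genes 11 were lower in rich mice by edgeR, although the median of Alb, albumin, was 282 CPM in rich and 20.8 in poor mice. Poor mouse LAX-E2 gave 26.6% of its counts to these genes and held 75.6% of the summed CPM of Alb. Without the 21 libraries that gave over 1% of counts to another tissue, 13 of these genes were higher and none lower, so no direction is read from this list. The same mouse led most genes of cholesterol synthesis, a pathway strong in liver, of which 8 of 17 were lower with all libraries and 3 lower and 2 higher without those 21. Intestinal genes (6 of 7 higher, none with limma) were led by rich mouse LAX-G3, and acinar genes (3 of 4 higher, none with limma) by rich mouse MEE-A3.

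The rich mice were not alike. Among them the mean over the B-cell list varied with an SD of 2.28 in log2 CPM, against 1.34 over the T-lineage list. Ms4a1 spanned 0.314 CPM in YID-C1 to 1239 CPM in CC053-H1, the widest range of the B-cell list. Relative to Cd3e in the same mouse it ran from -5.47 in YID-C1 to 5.21 in CC053-H1 on the log2 scale and exceeded Cd3e in 18 of 30 mice; since CPM are not scaled by transcript length, such a value compares mice and not the 2 genes. YID-C1 and LOX-F2 gave the smallest shares of their counts to the B-cell list among the rich mice, 0.00794% and 0.0150%, and their Gzmb stood at 27.6 and 77.8 CPM against a median of 11.4 CPM over the rich mice. KAV-G2 and CC059-B1 gave similarly small shares, 0.0151% and 0.0167%, but held 1.12 and 3.97 CPM of Gzmb. A small B-cell share thus did not go with one level of Gzmb. LOX-E4, with the highest Gzmb (137 CPM), held 6.08 CPM of Ms4a1 but gave 0.374% of its counts to the B-cell list, so 1 gene does not stand for the list. These mice were chosen after their values were seen. YID-C1 and LOX-E4 are also the 2 rich mice with one of the 17 libraries of highest number. The part of this in their values was not tested.

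The T-cell make-up varied as well. The log2 difference of Cd8a from Cd4 was lowest in LAX-H1 (-2.66), highest in YID-C1 (2.86) and above 0 in 8 of 30 mice, with a median of -0.49. LAX-H1 also held the highest level of the helper cell gene Icos (337 CPM), and its Gzmb was the lowest relative to Cd3e (-5.26). Foxp3 relative to Cd3e was lowest in LAX-K2 (-7.52) and highest in MEE-A3 (-0.94). Other lists had wide members too: Glycam1, of lymph node vessels, ran from 0.0627 CPM in YID-C1 to 1381 CPM in CC053-G3, Ighg3, an antibody heavy chain, from 0.125 CPM in YID-C1 to 7115 CPM in LAX-K2, and H2-Oa from 0.597 CPM in LAX-G3 to 114.5 CPM in LOX-E4. Psmb9 was the widest of the class I list and spanned 13.1 CPM in CC036-F1 to 316 CPM in LOX-E4. Several of these extremes lie in YID-C1 and LOX-E4, the 2 rich mice with libraries of the highest numbers.

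**Figure D4:**
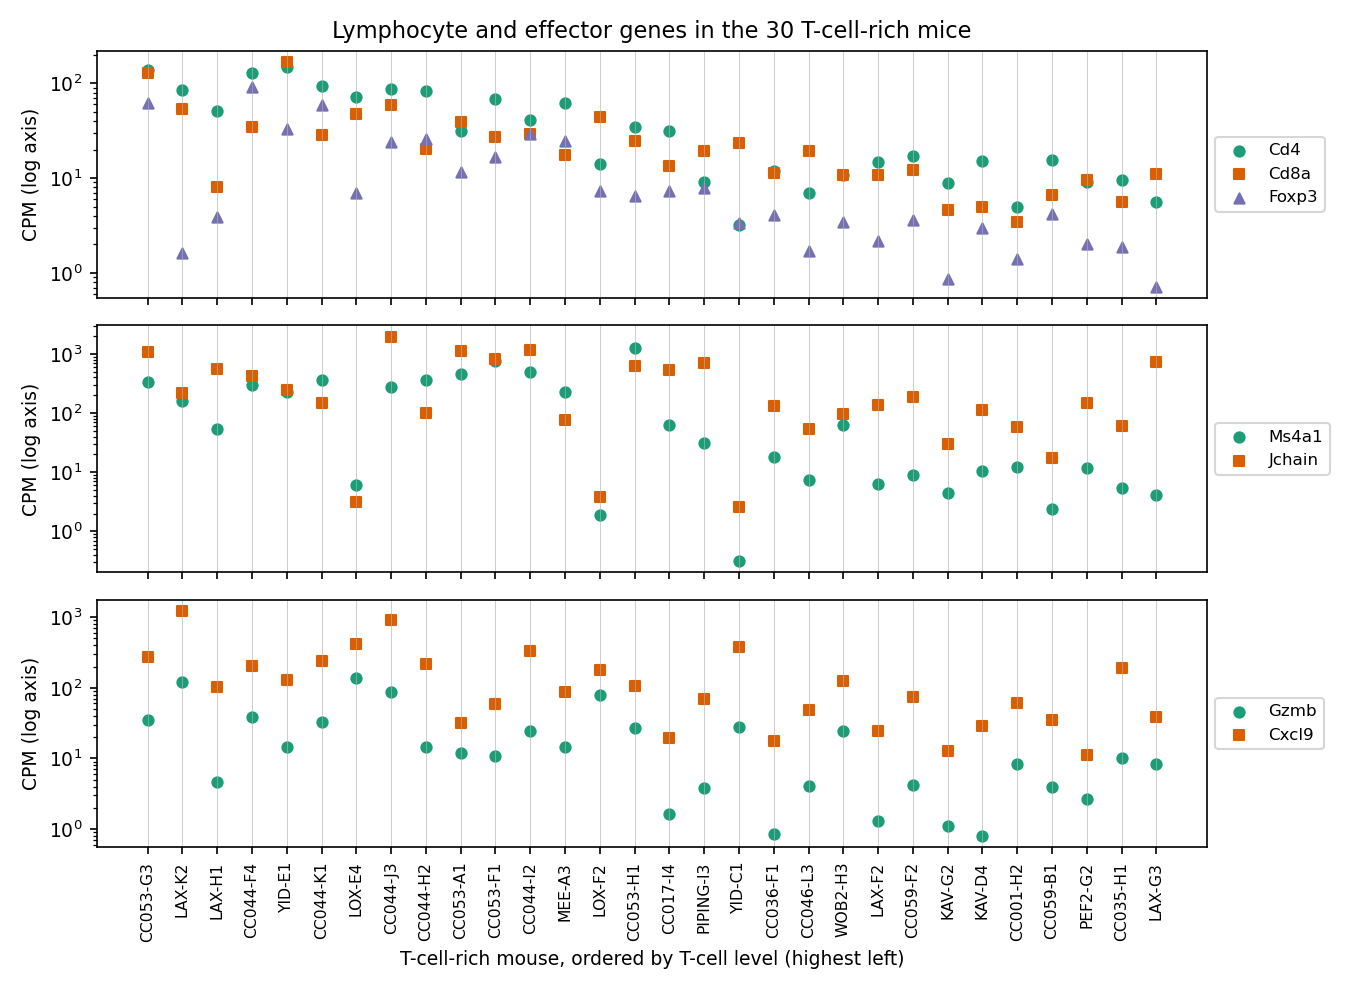
CPM (log axes) of T-cell subset genes (top), B-cell and plasma-cell genes (middle) and effector genes (bottom) in each of the 30 T-cell-rich mice, ordered by T-cell level from left to right. Ms4a1 spans 0.314 CPM (YID-C1) to 1239 CPM (CC053-H1), and LOX-E4 has the highest Gzmb, 137 CPM. YID-C1 and LOX-E4 are the rich mice with libraries of the highest numbers.

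Tumours of one mouse could differ in T-cell level. In the 35 mice with several tumours (83 tumours) the range within a mouse had a median of 0.83 and ran from 0.18 to 5.74 in log2 CPM. The SD was 0.99 within and 2.00 between mice. The 14 rich mice of this kind had 33 tumours, and in 7 of them every tumour lay above the limit of the rich group; none had a tumour below the limit of the poor group. CC044-J3 was the most even, with 3 tumours between 5.71 and 5.89, and CC053-A1 the most uneven, with tumours at 0.47 and 6.21. The 4 poor mice with several tumours had 8 tumours with ranges up to 0.79. All 5 mice with a library nearer to another strain are among the 35, MEE-A3 with a range of 4.24. What these libraries add to the spread within mice was not tested.

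Strain make-up differed between the groups. Over the 30 strains with a rich or a poor mouse, the chi-square statistic was 38 (permutation test, 100000 resamples, p = 0.0308). Rich mice came most often from CC044 (5 of its 7 mice), CC053 (4 of 6) and LAX (4 of 6), and poor mice from CC040 (3 of 4) and VUX (3 of 4). CC044 levels ran from 0.25 to 6.75 (median 5.42) and CC053 levels from 1.498 to 7.11 (median 4.55), whereas CC040 levels ran from -2.53 to 1.40 (median -0.57). LAX held both extremes, with 4 rich and 2 poor mice between -0.54 and 6.83, and LOX had 2 mice in each group. In all, 7 strains had mice in both groups, 9 in the rich group alone, 14 in the poor group alone and 5 in neither. The strain test lost its call without the 5 mice of high lymphoid tissue genes (chi-square 35.6, p = 0.0697), without the 17 libraries of highest number (30.5, p = 0.116) and with a split at the median (43.9, p = 0.0771), all by permutation.

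**Figure D5:**
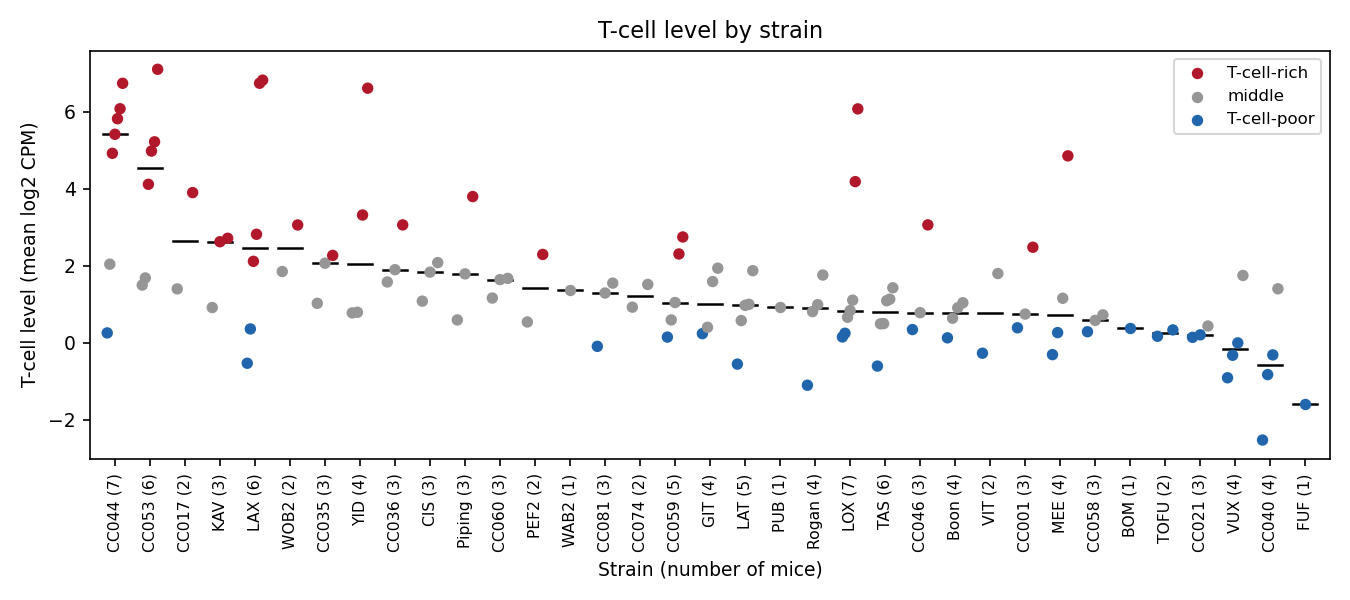
T-cell level (mean log2 CPM) of each mouse by strain, strains ordered by their median (line) and number of mice in parentheses, coloured by group. CC044 and CC053 have medians of 5.42 and 4.55, and mice of LAX reach from -0.54 to 6.83.

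Survival class did not differ detectably. Of the rich mice 6 of 30 were below median survival (20%, Wilson 95% interval 9.51 to 37.3%) and of the poor mice 8 of 30 (26.7%, 14.2 to 44.4%), a difference of -6.67 percentage points (Fisher's exact test, two-sided, p = 0.761). In the middle mice the share was 22 of 59 (37.3%, 26.1 to 50.05%). The difference stayed between -14.8 and -1.69 points in 12 alternatives, with exact p between 0.352 and 1. Within the rich group the median level was 4.01 in mice above and 4.02 in mice below median survival. In the 13 strains with mice of both classes, the mean level was lower in the below-median mice of 10 strains and higher in 3, a description with no test. The intervals are wide, and groups of this size leave a sizeable difference undetected in either direction.

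Within strain the contrast could be repeated on a subset of the same mice, 16 rich and 10 poor mice of the 7 strains with both. Of 16535 genes tested with strain in the model 1429 were higher (8.64%) and 1459 lower (8.82%) in rich mice, and all 24 genes named above passed in the same direction. This fit relies on strain labels that libraries of MEE-A3 and LOX-D1 went against. Without those mice, over 15 rich and 7 poor mice of 6 strains, 877 genes were higher and 657 lower, and all 24 named genes again passed in the same direction. The 24 genes were chosen for low p in mice that include these, so no support is drawn from their calls. LOX-E4, whose library lay nearer to CC044 by less than 0.1 in correlation, stayed in this fit. Among genes with a mean of at least 5 CPM and a log2 difference of at least 1 in size, outside T-lineage genes and gene segments, the 5 of lowest p were Stat4 (2.94 ± 0.29, SE), a transcription factor of interleukin 12 signalling, Epsti1 (2.65 ± 0.27), an interferon-induced gene, Rcsd1 (1.66 ± 0.18), Ifit1bl1 (4.57 ± 0.50), of the interferon-induced Ifit family, and Ly9 (3.02 ± 0.33), a lymphocyte surface receptor. B-cell genes were higher in 15 and class II genes in 10 cases, and interferon gamma genes in 18; these were 11, 9 and 12 without MEE-A3 and LOX-D1. Of the mesenchymal list 6 genes were lower, and 2 without those mice, with Fn1 at -2.40 ± 0.55 and Itga5 at -1.92 ± 0.39.

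The 59 middle mice, which had no part in the contrast, gave a trend over the T-cell level between 0.40 and 2.08. Of 14365 genes tested 188 rose with the level (1.31%) and 356 fell (2.48%). Among the 12 higher named genes 10 passed here; Gimap7 had a slope of 1.24 ± 0.18 log2 units per unit of level (SE, edgeR adjusted p = 1.71e-05) and Ms4a4b one of 0.88 ± 0.15, while Tbc1d10c (adjusted p = 0.166) and Itgal (adjusted p = 0.628) did not. B-cell genes rose in 13 of 17 cases, with Ms4a1 at 1.76, class II genes in 4 of 10, interferon gamma genes in 2 of 20 (among them Cxcl9, with a slope of 1.38), and class I genes in none of 12. Of the 188 genes that rose, 167 were also higher in rich mice (88.8% of the 188 and 5.94% of the 2813). The 188 include 14 T-lineage or T-cell receptor genes, of the cells that set the level, and 8 immunoglobulin or receptor gene segments. No support is drawn from this overlap.

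None of the 12 lower named genes passed in the middle mice, and none of the 18 mesenchymal genes did. Of the 356 genes that fell, 44.7% were also lower in rich mice, which is 4.35% of the 3659. In 237 of the 356 the highest of all middle mice was TAS-I1, whose hepatocyte genes took 19.97% of its counts, and limma-voom called 4 genes as falling and 143 as rising. Among genes with a mean of at least 5 CPM over the middle mice, outside T-lineage genes and gene segments, the 5 of lowest p were Il21r, the receptor of a helper T-cell cytokine (0.92 ± 0.14), the chemokine Ccl8 (1.497 ± 0.24), and Reg2 (-3.57 ± 0.55), Tdo2 (-4.15 ± 0.67) and Cela1 (-2.59 ± 0.42), genes of pancreas and liver that limma did not call (adjusted p 0.802 to 0.946).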

How the data were processed

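RNA-seq of 167 whole tumours of 119 mice was used. Per the labels' protocols, RNA was extracted on columns and made into strand-specific mRNA libraries. The submitters' processing notes name kallisto 0.46.1, the build GRCm38, DESeq2 and DESeq, with roles, settings and annotation release not given in the sources used here. For 36118 gene IDs the authors deposited an estimated count per tumour as a whole number, of which 35825 have a symbol. Depth per tumour was 11138491 to 35399287 counts, and 3 counts equal 0.269 CPM in the shallowest mouse.

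Columns were joined to tumours by title; the 2 columns of middle mouse GIT-K1 could be joined to the mouse alone. Counts were summed per mouse, the replicate; p-values measure the spread between mice. CPM used plain totals; tests used TMM scaling, filterByExpr by group and edgeR 4.0.16 (quasi-likelihood F-test, two-sided, R 4.3.3), with Benjamini-Hochberg adjustment over all genes tested. The fit within strain added strain as a covariate, and the trend in the middle mice used the T-cell level. Alternatives were limma-voom 3.58.1, DESeq2 1.42.0, other filters, scalings, cuts and T-cell genes, 1 tumour per mouse, covariates, and sets of mice or libraries left out. The code was tested on simulated counts. Survival class was compared by Fisher's exact test and strain make-up by permutation. The 19 technical measures were compared by permutation, with Fisher's exact test for counts of mice.

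Named genes were the 12 of lowest p per direction outside T-lineage genes, T-cell receptor and immunoglobulin segments, with an absolute log2 difference of at least 1, a mean of at least 5 CPM and no predicted symbol. Of each gene list up to 4 members per direction of lowest p were eligible; members named beyond these were chosen after their values were seen. The 5 genes of lowest p were named for the other fits. The groups, gene lists and genes were chosen with earlier results of these data known. The results of 2 genes that were eligible are not reported here. Promoter sequences are from RefSeq, GRCm38.p6. Wilson intervals and the limit of 3 counts describe counting error alone.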

Additional observations from a re-analysis of the deposited data

How the results depend on the processing

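Of the 16096 genes tested, 5291 passed with both edgeR and limma-voom. The counts of 2813 higher and 3659 lower genes moved by over 1.5 times with no filter on low counts (4648 higher) and with strain as a covariate (1586 higher and 1625 lower). Within strain, 1429 higher and 1459 lower genes became 877 and 657 without the mice nearer another strain. Scaling changed the median over all genes by less than 0.1 in log2. The trend in the middle mice was the least settled: 188 rising genes became 312 without libraries of other tissue and 371 without the 17 libraries of highest number. The 356 falling genes became 4 with limma-voom, 79 with 8 other T-cell genes, 96 without libraries of other tissue and 185 without the 17 libraries of highest number. They became 42 when 8 strains were left out as a set, which the labels do not name. Every mouse of those 8 strains held at least 2.55 CPM of the kidney gene Umod. Mice of other strains reached 6.49 CPM, so Umod does not mark off the set. The strain test (chi-square 38) lost its call with a split at the median (43.9, permutation p = 0.0771), without mice of high lymphoid tissue genes (35.6, p = 0.0697) and without the 17 libraries of highest number (30.5, p = 0.116). The cause of these changes was not tested. The alternatives without mice nearer another strain were chosen after seeing the data. The 24 genes of lowest p kept their call in 432 of 432 repeats, but were chosen for low p in the same mice. Over all genes printed with a passing test, 1989 of 2086 repeats kept the call, 92 lost it and 5 turned. These were Alb with limma-voom (2.75) and without libraries of other tissue (1.13), and Marco with DESeq2 (1.19), limma-voom (1.83) and strain as a covariate (2.65). No paired analysis was possible because the labels give no replicate number that ties rich to poor mice. With 3 counts at 0.269 CPM in the shallowest mouse, medians below that level are not measured well.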

Other observations

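Other gene lists were mixed between T-cell-rich and T-cell-poor mice. Of 11 mast cell and eosinophil genes 4 were higher in rich mice and none lower (36.4% higher, against 17.5% over all genes). They were the eosinophil chemokines Ccl24 (log2 difference 1.64 ± 0.41) and Ccl11 (1.97 ± 0.52) and the eosinophil receptors Il5ra (1.31 ± 0.40) and Ccr3 (1.37 ± 0.49). None of the 4 passed with strain as a covariate. The mast cell gene Cpa3 had medians of 3.23 and 1.10 CPM and did not pass (edgeR adjusted p = 0.824). Of 16 Wnt and hedgehog genes 6 were lower and 3 higher (37.5% and 18.75%, against 22.7% and 17.5% over all genes). Among the lower ones were Ctnnb1, the signal carrier beta-catenin (-0.55 ± 0.09), the ligand Wnt7b (-2.71 ± 0.59) and the hedgehog transducer Smo (-0.97 ± 0.26). With strain as a covariate 4 were lower and none higher. One of the higher ones, Hhip, owed 95.2% of its summed CPM to rich mouse KAV-G2, which also led the smooth muscle gene Myh11 (1.70 ± 0.68). Endothelial genes had 4 of 16 lower, a share near that over all genes, including Flt1, a receptor of Vegfa (-1.15 ± 0.32), and 1 lower with strain as a covariate.

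Of 14 tumour suppressor genes of mesothelioma, Rb1 was higher (0.71 ± 0.19) and 3 were lower, among them Cdkn1a, the p53 target p21 (-1.02 ± 0.26). These shares, 7.14% and 21.4%, are below those over all genes, 17.5% and 22.7%, so no result is read from this list. Oxidative phosphorylation (0 higher and 3 lower of 18), ribosomal protein genes (1 and 1 of 20), smooth muscle (2 and 1 of 10), adipocytes (0 and 0 of 10), erythroid cells (1 and 0 of 6), skeletal muscle (1 and 1 of 12), nerve and glia (1 and 1 of 5), kidney and adrenal (1 and 1 of 3), thymus (1 and 0 of 5), the reproductive tract (0 and 1 of 1) and sex-linked genes (0 and 0 of 4) had few or no genes that passed with all libraries. Without libraries of other tissue 9 of 10 adipocyte genes were higher in rich mice. Without the 17 libraries of highest number 9 adipocyte, 11 of 12 skeletal muscle and 6 of 10 smooth muscle genes were higher. The counts of these 3 lists thus change with the libraries used, and the cause was not tested.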
